A study of Mus musculus with 2 samples.

Results

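The miR-17-92 cluster consists of 6 microRNA (miRNA) hairpins, Mir17, Mir18, Mir19a, Mir20a, Mir19b-1 and Mir92-1, cut from 1 primary transcript, Mir17hg. Its members were taken by name as the 6 annotated genes with these symbols, of 1973 miRNA genes in the deposited tables. All 6 were found and all 6 passed the count minimum of the comparison between libraries. Counts were available from microRNA-seq of the liver of mouse embryos at day 12.5, strain B6NCrl, in 1 group of 2 biological replicates with males and females pooled. Replicate 1 was a pool of 120 embryos and replicate 2 a pool of 88. No genotype, treatment or second tissue is given in the labels, so levels are described and the 2 libraries are compared, and no conditions are.

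A miRNA is a short RNA that guides Argonaute proteins to messenger RNAs, mostly through pairing of its bases 2 to 8, the seed. The miR-17-92 cluster is known as an oncogene that Myc and E2F factors switch on in dividing cells, and mice without it die around birth. Its hairpins fall into 4 seed families. The miR-17 family restrains the cell cycle inhibitor Cdkn1a and the death factor Bcl2l11, miR-18a acts on Tgf-beta signalling, and miR-92a acts on integrin Itga5 in blood vessels. The day 12.5 liver is a site of rapid blood cell production and of hepatoblast growth.

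The sequences below are the arms usually taken as the guide strand of each hairpin, in the order of the transcript and in RNA letters, with the seed in capitals. They show which members share a seed, which is the grouping used for the results.
Mir17 (miR-17-5p): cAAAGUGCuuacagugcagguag
Mir18 (miR-18a-5p): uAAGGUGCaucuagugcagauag
Mir19a (miR-19a-3p): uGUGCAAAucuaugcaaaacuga
Mir20a (miR-20a-5p): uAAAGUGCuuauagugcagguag
Mir19b-1 (miR-19b-3p): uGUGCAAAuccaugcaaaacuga
Mir92-1 (miR-92a-3p): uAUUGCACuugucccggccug
Mir17 and Mir20a carry the same seed, as do Mir19a and Mir19b-1, while Mir18 and Mir92-1 each stand alone within the cluster. With positions counted from 1 at the 5′ end of the arm, miR-20a-5p differs from miR-17-5p by C1U and C12U. The arm of Mir19b-1 differs from that of Mir19a by U11C alone. Sequences are those of RefSeq on GRCm38.p6, the assembly also called mm10, and all 6 members were matched there.

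The 6 hairpins lie on the plus strand of chromosome 14 within 836 bases, from 115043671 to 115044506 (mm10), all in exon 2 of the long noncoding RNA Mir17hg (ENSMUSG00000089726.2, 115042879 to 115046727). In transcript order they are Mir17 (ENSMUSG00000065508.1) at 115043671 to 115043754, Mir18 (ENSMUSG00000065403.1) at 115043851 to 115043946, Mir19a (ENSMUSG00000065416.1) at 115044000 to 115044081, Mir20a (ENSMUSG00000065442.1) at 115044157 to 115044263, Mir19b-1 (ENSMUSG00000076256.1) at 115044305 to 115044391 and Mir92-1 (ENSMUSG00000076062.1) at 115044427 to 115044506. The gap between a hairpin and the one before it was 96 bases before Mir18, 53 before Mir19a, 75 before Mir20a, 41 before Mir19b-1 and 35 before Mir92-1. The gaps thus ran from 35 to 96 bases, and the hairpins from 80 to 107 bases. Counts are given per hairpin, so the 2 arms of a hairpin cannot be told apart in them.

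The libraries held 3447858 (replicate 1) and 3534816 (replicate 2) reads on the sense strand of miRNA genes, and levels are counts per 1000000 of these (CPM). The labels give the libraries a size range under 30, with no unit, and a read is taken here as 1 miRNA, so levels are not divided by gene length. The liver marker Mir122 stood at 60913 and 47128 CPM. The erythroid marker Mir451a stood at 12422 CPM in replicate 1 and 32496 CPM in replicate 2, and the myeloid Mir223 stood at 6929 and 5584 CPM. The 6 neural and muscle markers lay between 0 and 288 CPM. Among them, Mir9-2, Mir124a-1, Mir1a-1 and Mir133a-1 had 0 counts in both libraries. Whether these genes have copies elsewhere was not searched. Reads aligned to several places appear to be left out of gene counts, so 0 may not mean absence. Both pools carry 1 donor identifier in the labels, which do not say that they came from separate litters, so the spread between the replicates may be partly technical. Intervals cover counting error only, as the reads carry no molecular identifiers.

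The cluster as a whole was abundant among the counted reads and its members were far from equal. Together they held 8.53% of all miRNA gene counts in replicate 1 (95% Wilson interval 8.51 to 8.56) and 9.59% in replicate 2 (9.56 to 9.62). Reads of several places, 28.8% and 31.1% of all reads, appear to be left out of these counts. Genes with identical copies may be lowered by this, so shares and ranks of members hold among counted reads only. Mir17 alone made up 56.1% ± 0.146 (SD, n = 2) of the counts on the 6 members, and Mir19b-1 made up 0.0526% ± 0.00391. Among the 4 others, Mir20a held 23.6% ± 1.86, Mir92-1 10.6% ± 1.79, Mir18 9.37% ± 0.192 and Mir19a 0.222% ± 0.0182.

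**Figure D1:**
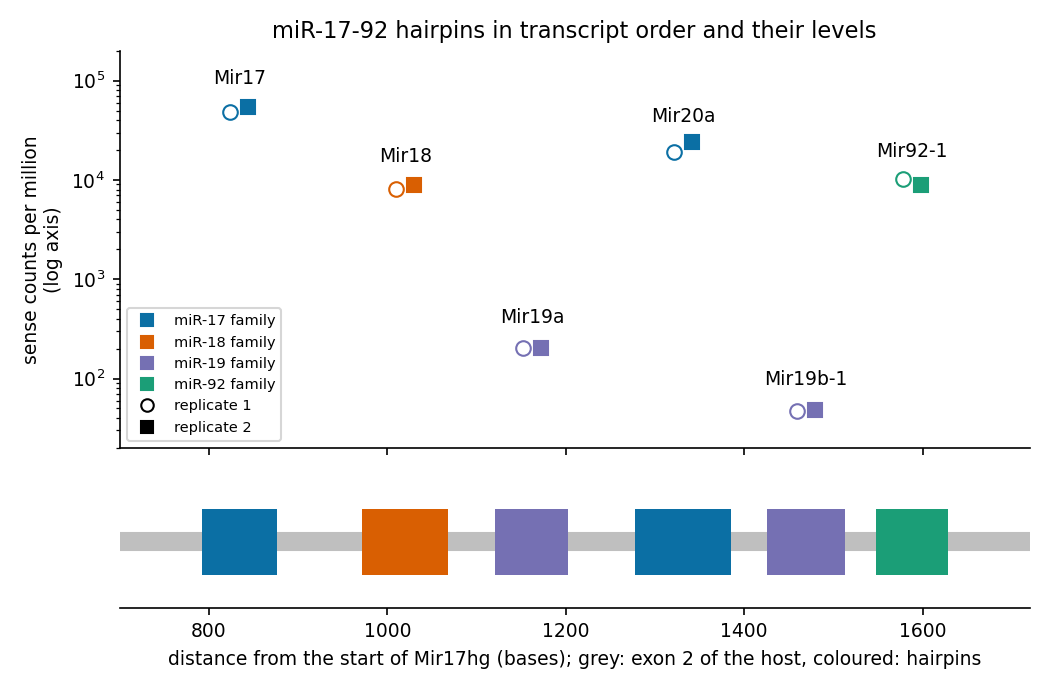
Level of each hairpin in CPM (upper panel, log axis; open circles replicate 1, filled squares replicate 2) above its position in Mir17hg in bases from the start of the transcript (lower panel). Mir19a and Mir19b-1, the hairpins at places 3 and 5, lie at 201 and 47.5 CPM on average, while their neighbours on either side lie at 8112 CPM or more in both libraries.

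Level did not follow the order in the transcript. The sequence of means from the first hairpin to the last was 50882, 8483, 201, 21484, 47.5 and 9526 CPM, so that it falls to Mir19a, climbs at Mir20a, falls again at Mir19b-1 and climbs at Mir92-1. The last hairpin exceeded the hairpin just before it, 35 bases away, by 214 times (replicate 1) and 187 times (replicate 2). The guide arms of both hairpins are repeated in other genes, so reads aligned to several places may be missing from either count. This ratio is therefore one of counted reads. The map of the hairpins with their levels shows both low hairpins between high ones.

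The miR-17 seed, AAAGUGC, carried most of the cluster. Mir17 was counted 164899 times in replicate 1 and 190657 times in replicate 2, or 47827 and 53937 CPM, which placed it at rank 4 and rank 2 of the 1973 genes. Mir20a was counted 65675 and 84551 times, or 19048 and 23919 CPM, at rank 15 and rank 12. Both genes were higher in replicate 2, and the lower of the 2 values of Mir17 was still above the higher value of Mir20a. The ratio of Mir17 to Mir20a was 2.51 in replicate 1 and 2.25 in replicate 2. Together they made up 78.4% of the cluster's counts in replicate 1 (95% Wilson interval 78.2 to 78.5) and 81.2% in replicate 2 (81.1 to 81.3).

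Mir18, the only member with the seed AAGGUGC, had 27968 and 31295 counts, or 8112 and 8853 CPM, at rank 37 and rank 32. Mir92-1, the only member with the seed AUUGCAC, had 34870 and 31598 counts, or 10114 and 8939 CPM, at rank 27 and rank 31. Mir92-1 was lower in replicate 2 and Mir18 was higher. In replicate 1 Mir92-1 exceeded Mir18 by 1.25 times and in replicate 2 by 1.01 times. The gap between their means, 1044 CPM, was smaller than the sum of their SDs, 1355 CPM, so this pair did not differ beyond its spread. Every other pair of neighbours in the order Mir17, Mir20a, Mir92-1, Mir18, Mir19a and Mir19b-1 differed by more than the sum of its SDs.

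The miR-19 seed, GUGCAAA, was rare in the reads counted on genes. Mir19a had 692 and 710 counts, or 201 CPM in each library (95% Wilson intervals 186 to 216 in both), at rank 179 and rank 174. Mir19b-1 had 163 and 169 counts, or 47.3 CPM (40.6 to 55.1) and 47.8 CPM (41.1 to 55.6), at rank 235 in both. The values of both genes agreed between the libraries within counting error, and Mir19a exceeded Mir19b-1 by 4.25 and 4.20 times. The 2 genes together made up 0.291% (0.272 to 0.311) and 0.259% (0.243 to 0.277) of the cluster's counts. Mir17 exceeded Mir19a by 238 and 269 times and Mir19b-1 by 1012 and 1128 times. Reads of the Mir19b-1 arm that also aligned to Mir19b-2, a gene with the same arm, may be missing from these counts. How efficiently each miRNA enters such a library was not measured here. The ratios to Mir17 are therefore ratios of counted reads and may not be ratios of molecules.

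**Figure D2:**
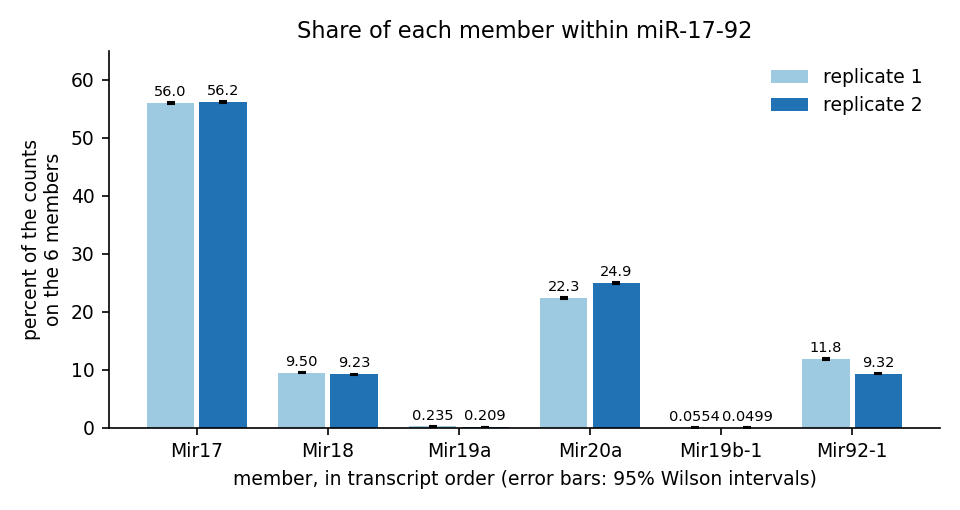
Percent of the counts on the 6 members that fell on each member, in transcript order, with 95% Wilson intervals as error bars (light bars replicate 1, dark bars replicate 2). Mir17 takes 56.0% and 56.2%, Mir20a is the member that gains most from replicate 1 to replicate 2 (22.3% to 24.9%), and Mir92-1 drops from 11.8% to 9.32%.

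Within the cluster the makeup was alike in the 2 libraries, with 2 visible shifts. The share of Mir20a was 22.3% (95% Wilson interval 22.2 to 22.5) in replicate 1 and 24.9% (24.8 to 25.1) in replicate 2. The share of Mir92-1 was 11.8% (11.7 to 12.0) and 9.32% (9.22 to 9.42). The share of Mir18 also lay apart, at 9.50% (9.40 to 9.61) and 9.23% (9.14 to 9.33), whereas the intervals of Mir17, Mir19a and Mir19b-1 overlapped. The plot of shares shows these shifts beside a share of Mir17 that stayed near 56%.

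A second genomic copy of the guide arm was found for 2 of the 6 members. The arm of Mir19b-1 is repeated letter for letter in Mir19b-2, and that of Mir92-1 in Mir92-2, both in the paralogous miR-106a-363 cluster on chromosome X. A search of all annotated mouse miRNA hairpins (GENCODE M21, both strands) found the arms of Mir17, Mir18, Mir19a and Mir20a once each. The deposited tables keep reads that align to several places in a line of their own, 28.8% and 31.1% of all reads. That the gene lines leave these reads out is inferred from this separate line, since the counting program is not named. A read that ends within the stretch shared by both copies could fall in that line. The stretches are shown here because they set which reads could be counted on either copy, with the longest shared run in capitals.
Mir19b-1: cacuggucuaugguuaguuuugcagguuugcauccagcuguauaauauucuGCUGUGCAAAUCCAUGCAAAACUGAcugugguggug
Mir19b-2: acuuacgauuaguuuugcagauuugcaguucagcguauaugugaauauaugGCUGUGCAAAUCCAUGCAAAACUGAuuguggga
Mir92-1: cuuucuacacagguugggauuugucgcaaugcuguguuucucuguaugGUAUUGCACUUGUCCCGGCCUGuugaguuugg
Mir92-2: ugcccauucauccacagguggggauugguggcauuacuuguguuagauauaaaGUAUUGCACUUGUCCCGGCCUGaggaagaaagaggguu
The copies of miR-19b share 25 bases, made of the 23 bases of the arm and 2 bases before it. The copies of miR-92a share 22 bases, made of the 21 bases of the arm and 1 base before it. In both pairs the run ends exactly where the annotated arm ends, so a read that runs past the 3′ end of the arm on the genomic letters meets a base that differs between the copies.

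The 2 members with a second copy of the arm stood at unlike levels, and whether a second copy lowers a count was not tested. Mir92-1, with 2 copies of its arm, had 10114 and 8939 CPM, and Mir19b-1, also with 2 copies, had 47.3 and 47.8 CPM. Mir19a, with 1 copy, stood at 201 CPM in both libraries, below Mir92-1 and next to the lowest of the 6. The longest run that Mir19a shares with any other annotated hairpin on its sense strand is 13 bases, with Mir19b-2. Its arm differs from those of Mir19b-1 and Mir19b-2 by U11C alone, and the mismatches allowed in the alignment are not known. The levels of Mir92-1 and Mir19b-1 are uncertain by the part of their reads that aligned to both copies, which was not analysed here.

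Between the copies, the hairpin of miR-17-92 had more counts than that on chromosome X. Reads that aligned to both copies may be missing from these counts, so the ratios may cover only reads assigned to 1 copy. Mir92-2 (ENSMUSG00000065613.1; chromosome X, 52741838 to 52741928, minus strand) had 921 and 856 counts, and Mir92-1 exceeded it by 37.9 and 36.9 times. Mir19b-2 (ENSMUSG00000065473.1; chromosome X, 52741983 to 52742066, minus strand) had 30 and 22 counts, and Mir19b-1 exceeded it by 5.43 and 7.68 times. The SD of that ratio over the libraries was 0.670 for the miR-92a pair and 1.59 for the miR-19b pair. With the counts of the copies added, Mir17 exceeded the sum for miR-19b by 926 times on average, against 1070 times for Mir19b-1 alone.

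The base composition of the arms differed among members. The guide arm had a GC content of 34.8% in Mir19a, 39.1% in Mir19b-1 and Mir20a, 43.5% in Mir18, 47.8% in Mir17 and 57.1% in Mir92-1. Mir20a and Mir19b-1, with the same GC content, differed by 403 and 500.3 times in level, and they also differ in the number of copies of the arm. The part of base composition in the levels was not tested. The usual guide is the 5′ arm in Mir17, Mir18 and Mir20a and the 3′ arm in Mir19a, Mir19b-1 and Mir92-1.

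Members of the cluster supplied most of the counts of each seed family. A family was taken as every analysed gene with an annotated arm whose bases 2 to 8 match those of a member, which added 13 genes to the 6 members. For the seed AAAGUGC, Mir17 and Mir20a supplied 73.1% of the family's counts in replicate 1 (95% Wilson interval 73.0 to 73.3) and 72.3% in replicate 2 (72.2 to 72.4). The rest came mainly from Mir93 and Mir106b of the miR-106b-25 cluster, which lies inside the replication gene Mcm7. Mir93 stood at 14707 and 18730 CPM and Mir106b at 9497 and 10668 CPM. Mir93 was thus below Mir20a in each library, though the value of Mir93 in replicate 2 nearly reached that of Mir20a in replicate 1. Mir106a at 256 and 264 CPM and Mir20b at 125 and 156 CPM, both on chromosome X, were minor members, and Mir6383 was not counted in either library (a limit of 3 counts is 0.870 and 0.849 CPM).

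For the seed AAGGUGC, Mir18 supplied 99.8% of the family in both libraries, as its only relative, Mir18b, had 67 and 74 counts. The arm of Mir18b differs from that of Mir18 by A18U and A20U. For the seed GUGCAAA, Mir19a and Mir19b-1 supplied 96.6% (95.2 to 97.6) and 97.6% (96.3 to 98.4), and the 3 genes of the miR-19 family summed to 257 and 255 CPM. Mir19b-1 and Mir19b-2 share the whole arm, so reads of it that aligned to both may be missing from this sum. For the seed AUUGCAC, Mir92-1 supplied 83.9% (83.5 to 84.2) and 81.4% (81.1 to 81.8). Mir25 followed at 1015 and 1178 CPM, and Mir32, Mir92-2, Mir363 and Mir92b lay between 121 and 304 CPM. Mir367 had 0 and 4 counts. Mir92-1 and Mir92-2 also share the whole arm, so reads aligned to both may be missing from the counts of this family.

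**Figure D3:**
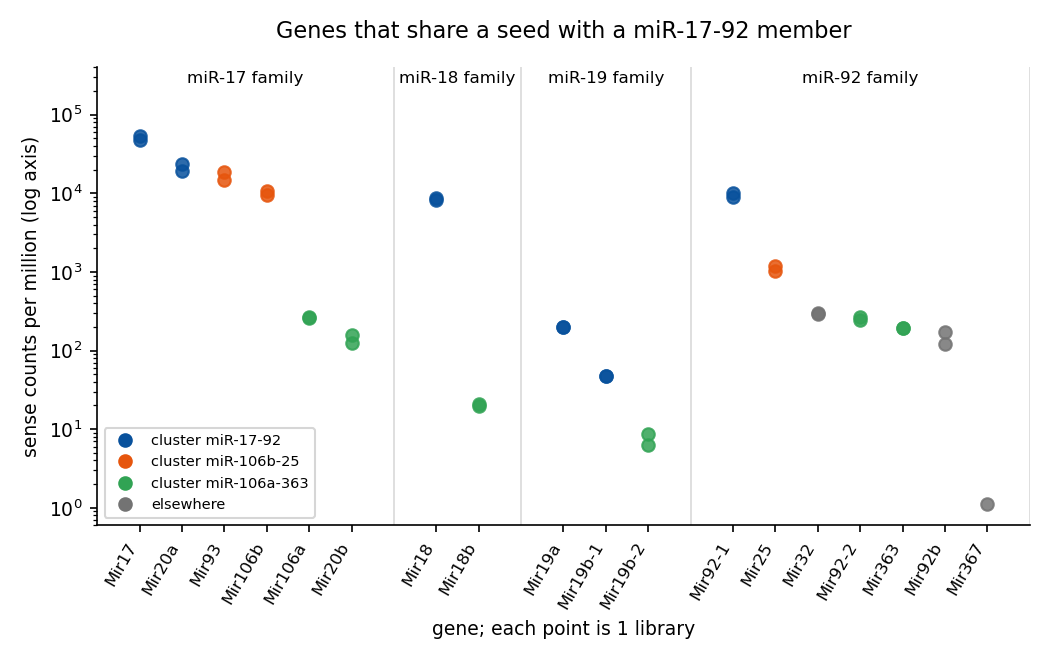
Level of every gene that shares a seed with a member, by seed family, in CPM on a log axis, with 1 point per library coloured by cluster; Mir6383 and the library in which Mir367 had 0 counts are not drawn. In each of the 4 families the highest gene belongs to miR-17-92 (blue), and Mir93 and Mir106b (orange) come closest, at 14707 to 18730 and 9497 to 10668 CPM.

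The 3 related clusters differed in size and in their makeup. The miR-17-92 members held 9.06% ± 0.746 (SD, n = 2) of all miRNA gene counts, the 3 genes of miR-106b-25 held 2.79% ± 0.379 and the 6 genes of miR-106a-363 held 0.0876% ± 0.000584. Mir17 exceeded its counterpart Mir106a by 187 and 204 times, Mir18 exceeded Mir18b by 417 and 423 times, and Mir20a exceeded Mir20b by 152 and 154 times. The arms of Mir17 and Mir106a differ by U10A alone. In miR-17-92 the gene at the start exceeded the miR-20a gene by 2.51 and 2.25 times, and in miR-106a-363 Mir106a exceeded Mir20b by 2.04 and 1.70 times. In miR-106b-25 the order was the other way, with Mir106b at 0.646 and 0.570 times Mir93. The low place of miR-19b was seen in miR-106a-363 too, where Mir106a exceeded Mir19b-2, with 30 and 22 counts, by 29.4 and 42.5 times. Mir19b-2 has the same arm as Mir19b-1, so reads aligned to both may be missing from each. The low places of these genes in their clusters are therefore not independent. These differences in makeup were not tested, since each cluster has 2 values.

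In the order of all genes, members stood next to miRNAs of other origin. Mir17 had Mir122 above it and Mir335, carried by the imprinted gene Mest, below it. Mir20a lay between Mir451a and Mir130a, Mir92-1 between Mir379 and Mir10a, Mir18 between Mir22 and Mir23b, Mir19a between Mir1981 and Mir363, and Mir19b-1 between Mir292 and Mir199a-2. In 11 of these 12 pairs the gap between the means was within the sum of the SDs and the order was not the same in both libraries. The exception was Mir19a and Mir363, at 201 ± 0.109 and 193 ± 3.20 CPM (SD, n = 2), where the order was kept and the gap was larger than the sum of the SDs, though the counting intervals overlapped. Neighbours were taken by closeness of their means. With 2 values per gene, a reversed order always puts the gap within the sum of the SDs. Nothing about the members is therefore read from the 11 pairs. With 2 libraries of 1 group, no likeness of pattern between genes could be measured.

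The libraries were compared gene by gene with a two-sided exact binomial test on library sizes scaled by TMM (trimmed mean of M values) over 464 genes with at least 10 counts, with Benjamini-Hochberg adjustment at 0.05. It compares 2 libraries and covers counting error only. Of all genes tested 40.3% differed, 22.4% higher and 17.9% lower in replicate 2. Of the 6 members 4 differed, 3 higher and 1 lower. With 6 genes beside that background, nothing particular to the cluster is read from this share. Scaled to total counts, the calls over all genes were 77 higher and 101 lower in place of 104 and 83, while the calls and directions of the members stayed as they were.

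The 3 members higher in replicate 2 were Mir20a, Mir17 and Mir18. Mir20a had a log2 ratio of replicate 2 over replicate 1 of 0.39 (95% Clopper-Pearson interval 0.38 to 0.41), or 1.31-fold. Mir17 had 0.24 (0.23 to 0.25) and Mir18 had 0.19 (0.17 to 0.21). Mir92-1 was lower, with -0.12 (-0.14 to -0.09). Mir19a had 0.06 (-0.09 to 0.22) and Mir19b-1 had 0.08 (-0.24 to 0.40), and neither passed (adjusted p = 0.570 and 0.772, exact binomial test). For these 2 genes a difference as small as their own ratios was not detectable at their depth. The interval of Mir19a holds the ratio of Mir18 and leaves out those of Mir20a, Mir17 and Mir92-1. That of Mir19b-1 holds the ratios of all 4 members that passed.

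How these differences compare with those of other genes depended on level. The median absolute log2 ratio was 0.15 over the 6 members and 0.26 over all 464 genes tested, and the medians with sign were 0.13 and 0.03. Over all tested genes, 166 exceeded Mir20a in absolute ratio. Low counts give wide ratios, so the 4 abundant members were also set beside the 31 other genes at or above the mean level of Mir18, a level chosen after the values were seen. The median absolute log2 ratio of those genes was 0.09, and 3 of them exceeded Mir20a, 5 exceeded Mir17, 7 exceeded Mir18 and 13 exceeded Mir92-1. In edgeR's negative binomial exact test with an assumed biological coefficient of variation of 0.1, 2.59% of genes and 0 of 6 members passed, with adjusted p from 0.498 (Mir20a) to 0.972. With the coefficient of 0.162 estimated from these same libraries 1.08% of genes and 0 of 6 members passed. That estimate takes the difference between the 2 libraries as noise, so it cannot show that the members do not differ. At an unadjusted p under 0.05, edgeR called 0 members with either coefficient. Cell type markers moved as well. The erythroid markers had log2 ratios of 1.45 for Mir451a, 0.36 for Mir144 and -0.37 for Mir486. The liver marker Mir122 had -0.31, the myeloid Mir223 had -0.25, the endothelial Mir126a had 0.05 and the muscle miRNA Mir206 had 1.22. These 7 passed the exact binomial test, but only Mir451a and Mir206 passed edgeR's test, with either coefficient. The neural Mir219a-1 had 0.24 and did not pass (adjusted p = 0.104, exact binomial test). Markers with 0 counts were not tested. The part of the markers in the members' ratios was not tested.

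**Figure D4:**
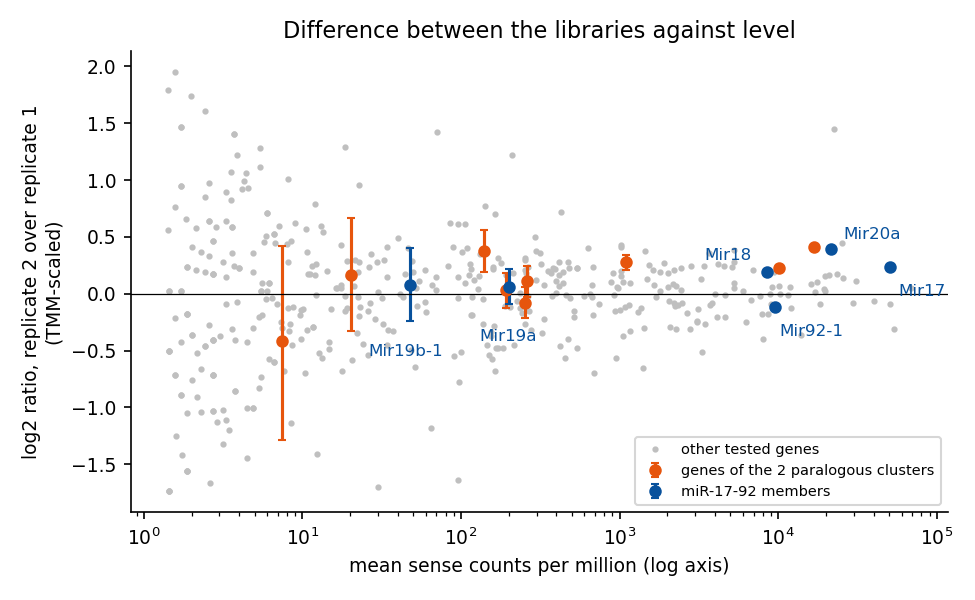
Log2 ratio of replicate 2 over replicate 1 (TMM-scaled) against mean level (log axis) for the 464 genes tested, with 95% Clopper-Pearson intervals for the miR-17-92 members (blue) and the genes of the paralogous clusters (orange). Mir20a and Mir17 lie above 0, Mir92-1 lies below 0, and the intervals of Mir19a and Mir19b-1 span 0.

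Ratios in the paralogous clusters are given beside those of the members. Mir93 had a log2 ratio of 0.41 (95% Clopper-Pearson interval 0.39 to 0.43) and Mir20b one of 0.37 (0.19 to 0.56), near the 0.39 of Mir20a, their counterpart. Mir106b had 0.23 (0.21 to 0.25), near the 0.24 of Mir17, while Mir106a had 0.11 (-0.02 to 0.24). Mir25 was higher in replicate 2, with 0.28 (0.21 to 0.34), whereas Mir92-1 was lower. Mir92-2 had -0.08 (-0.21 to 0.06) and did not pass. Of the 9 genes in these 2 clusters 4 differed in the exact binomial test, Mir93, Mir106b, Mir25 and Mir20b, all higher, beside 40.3% of all genes called and 22.4% called higher.

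Counts on the strand opposite to the 6 hairpins were 0 throughout, a limit of 0.870 and 0.849 CPM per gene. The sense counts of the members therefore equal their counts on both strands.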

How the data were processed

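MicroRNA-seq libraries of day 12.5 mouse liver were analysed. The authors deposited raw read counts per gene and library, on both strands, sense and opposite, made on mm10 with the GENCODE M4 annotation per the file lists. The sources used here do not name the aligner, the counter or the extraction, which are therefore not given. Reads of no gene (unmapped 29.4% and 25.8%, several places 28.8% and 31.1%, no gene 10.6% and 11.0%, at most 1 ambiguous) were left out of totals and tests. Leaving out reads of several places can lower genes that have identical copies.

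Names and positions came from GENCODE M21 on the same assembly (1894 of 1973 identifiers matched), and sequences from RefSeq. Copies were searched among annotated miRNAs, because no genome sequence was used. Sense counts were scaled to CPM. The exact binomial test, with 0.5 counts added for log2 ratios, used TMM sizes (edgeR 4.0.16, R 4.3.3, scipy 1.17.1), and edgeR's exact test and DESeq2 1.42.0 size factors were alternatives. The exact binomial test was also run on simulated counts with counting noise only, which is the noise it assumes. That run therefore cannot show how the test behaves with a wider spread between libraries. The members, lists and tests were chosen with earlier results of these data known. Named genes are the members, genes sharing a seed, genes of the 2 paralogous clusters, and the genes directly above and below each member in level.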

Additional observations from a re-analysis of the deposited data

How the results depend on the processing

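With counts of both strands and their total as denominator, the mean level was 46021 CPM for Mir17, 7672 for Mir18, 182 for Mir19a, 43.0 for Mir19b-1 and 8614 for Mir92-1, and the members held 8.20% of the counts. With all reads of the library as denominator it was 16112 CPM for Mir17, 2685 for Mir18, 63.5 for Mir19a, 6808 for Mir20a, 15.0 for Mir19b-1 and 3011 for Mir92-1, and the members held 2.87%. Both settings enlarge the denominator. Without Mir451a in the total, Mir19a stood at 205 and Mir19b-1 at 48.6 CPM. Restricted to members with 1 copy of the guide arm, the cluster held 8.10% of all counts and Mir17, Mir20a, Mir18 and Mir19a made up 62.8%, 26.4%, 10.5% and 0.249% of it. With the counts of the second copy added, Mir17 made up 56.0% and miR-19b 0.0608% of the cluster, and Mir17 exceeded miR-19b by 926 times. Per base of hairpin, an alternative chosen after seeing the data, Mir17 exceeded Mir18 by 6.85 and Mir20a by 3.04 times. Among family genes with 1 copy of the arm, the cluster held 100% for the seed GUGCAAA and 0% for AUUGCAC, since this leaves Mir92-1 out. The count of members that differed, 4 by the exact binomial test, was 0 with edgeR at an assumed coefficient of variation of 0.1 and 0 with the estimated one. The estimated coefficient takes the difference between the libraries as noise. Of 134 alternative values, the other 105 kept their direction and call or stayed within 1 SD, among them every log2 ratio of a member under total counts, median-of-ratios size factors, both strands and 5 counts added. Levels, shares and ratios in 1 library alone are counted in that number, but a single value of 2 always lies within 1 SD of their mean. Shares within the cluster and ratios to Mir17 could not change with counts of both strands, as members have no opposite counts. Ratios of Mir17 to Mir18, Mir19a and Mir20a could not change with the second copy added. The number 105 is therefore no measure of how stable the results are. Depth limits Mir19b-1 most, with 163 and 169 counts.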
